A study of Mus musculus with 15 samples.

Results

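The mitochondrial ribosomal protein genes were followed through the loss and the return of microglia in the mouse cortex. The set holds every row of the deposited count table whose symbol is Mrps or Mrpl with a number and, for some, a letter, pseudogenes left out, which gave 78 genes of 53278. All 78 passed the count filter, so each was tested, and all are annotated as protein-coding. The data are read counts per gene from the brain cortex of 15 male C57BL/6J mice aged 10 to 20 weeks, 1 library per mouse, in 3 groups of 5. Control mice ate control food. Depleted mice ate food with PLX3397 for 9 days. Repopulated mice ate PLX3397 food for 9 days and control food for a further 9 days. PLX3397 blocks CSF1R, a receptor kinase on which microglia depend for survival. It reaches the whole body and is known to inhibit other kinases too. The labels name 1 control group and give no separate control for the later sampling of the repopulated mice.

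Mitochondria keep a small genome that encodes core subunits of the respiratory chain, and they translate it on their own ribosome. The RNA of this mitoribosome comes from the mitochondrial genome, while all its proteins are encoded in the nucleus, made in the cytosol and imported. The small subunit binds the messenger RNA and decodes it, and the large subunit joins the amino acids. Part of the proteins descend from those of the bacterial ribosome and part are found in mitochondria only. In neurons and glia alike the mitoribosome is a housekeeping machine, so its genes mark no cell type.

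Among the 78 genes, 26 encode small subunit proteins, 16 of them with a bacterial counterpart, and 51 encode large subunit proteins, 31 of them with such a counterpart. Mrps30 and Mrps18a are counted with the large subunit, where their proteins sit in spite of their symbols. Mrps36 was kept apart, because its product is now placed in the 2-oxoglutarate dehydrogenase complex. These roles are background knowledge and were not read from the data.

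Depletion and return of microglia were visible in the same libraries. The summed level of 10 microglial markers, from Csf1r to Trem2, ran from 299.9 to 332.9 CPM in control, from 14.7 to 18.7 CPM on PLX3397 and from 332 to 377.3 CPM after repopulation, and none of the 10 was at 0 in a whole group. CPM is a gene's read count relative to the TMM-scaled total of its library. Summed neuronal markers overlapped in all 3 groups (9950 to 11040 CPM over all libraries), while the sum of 4 oligodendrocyte precursor markers was 31.5 to 54.1 CPM on PLX3397 against 92.3 to 105.2 in control. Endothelial markers summed to 106.9 to 120.8 CPM on PLX3397, below control (122.7 to 135.9) and repopulated mice (125.6 to 135.4). Oligodendrocyte markers summed to 5006 to 6110 CPM on PLX3397, 4758 to 5008 in control and 4308 to 5115 after repopulation. The part of these shifts in the results was not tested. Choroid plexus markers ranged from 8.26 to 549.3 CPM among repopulated mice. Total counts were 23413551 to 48617851 per library, and control 1 was the deepest. In bulk tissue fewer cells of a type and less RNA per cell cannot be told apart. The sample index in the column names runs in the order of the groups, so any effect of that order and the group cannot be told apart.

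The mitoribosomal protein genes were moderately expressed. Over all libraries the median member stood at 17.96 CPM, the lowest at 0.537 and the highest at 62.7, and a member's count in a library ran from 9 to 3194 reads. Levels of different genes were compared per kilobase of the main protein-coding transcript. On that scale the median was 11.9 CPM per kilobase, with 10.4 for the small and 12.8 for the large subunit. Mrpl42 (42.5 CPM per kilobase), Mrps21 (28.7) and Mrps18a (28.3) were highest. Mrps25 (3.15), Mrpl17 (2.63) and Mrpl53 (0.772) were lowest. This order rests on the annotated length of the main transcript. In CPM, Mrps25 (19.1) and Mrpl17 (19.2) were above the median member, and their main transcripts have 6073 and 7300 bases. The main transcript of Mrpl42 has 666 bases, while its exons together cover 3682. Mrpl53 rests on 9 to 44 reads per library, and an annotated gene on its own strand, Gm42688, shares 88.0% of its exon bases. Between mice of a group a member's level varied little. The median coefficient of variation was 6.29% in control, 7.14% on PLX3397 and 5.86% after repopulation.

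After repopulation most mitoribosomal protein genes were lower than in control mice. Of the 78 members, 51 fell and 0 rose against control. The median member changed by -0.22 on the log2 scale, or -13.9%. Over all 18369 genes tested, 15.2% were called lower and 13.9% higher in this comparison, and the median was 0.01. The changes were small. Those of the 51 called members ran from -0.79 to -0.13 on the log2 scale. In 42 members all 5 repopulated mice lay below all 5 control mice, a pattern seen in 11.8% of the tested genes. None had all repopulated mice above all control mice, as 10.5% of tested genes did. Calls are adjusted p-values under 0.05 in edgeR's quasi-likelihood F test, with the Benjamini-Hochberg method applied over all genes. At an unadjusted p under 0.05, 56 members were lower and 0 higher, against 19.7% and 19.3% of all tested genes, and DESeq2 also called 0 higher.

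Both subunits took part. In the small subunit 14 of 26 members fell, with a median of -0.20, and in the large subunit 36 of 51, with a median of -0.22. Among large subunit proteins found in mitochondria only, 18 of 20 fell, against 18 of 31 with a bacterial counterpart. The corresponding counts in the small subunit were 7 of 10 and 7 of 16. The split into these classes is approximate. Among the relatives of bacterial S18, Mrps18a and Mrps18c were counted with a bacterial counterpart and Mrps18b without. Mrpl58, a relative of release factors, was counted among the proteins found in mitochondria only. The difference between these classes was not tested.

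The plot of medians per mouse shows how evenly the libraries behaved. The median member lay between -0.06 and 0.04 log2 units of the control mean in the 5 control mice, between -0.14 and 0.02 on PLX3397 and between -0.22 and -0.17 after repopulation. The repopulated mice thus overlapped neither other group, while PLX3397 and control overlapped. The reads of all members together made up 0.1561 to 0.1675% of a control library, 0.1471 to 0.1626% on PLX3397 and 0.1394 to 0.1439% after repopulation.

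**Figure D1:**
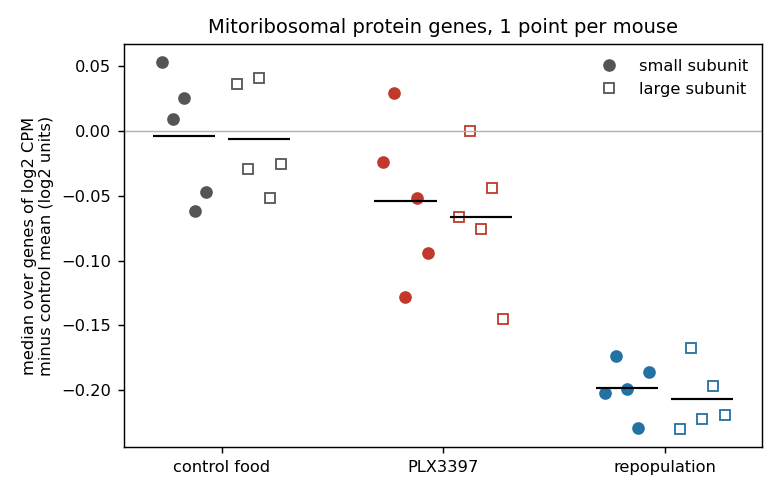
Median over the small subunit (filled circles) and large subunit (open squares) genes of log2 CPM minus the control mean, in log2 units, with 1 point per mouse and a line at the mean of 5 mice. All 5 repopulated mice lie below all control and PLX3397 mice in both subunits.

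Some of the genes with the smallest adjusted p are introduced with the stretch before their transcription start, to show which known motifs their promoters hold. The 100 bases that end just before the start are given 5′ to 3′ from RefSeq on GRCm38.p6, with capitals for matches to the motifs named below.
Mrps23, chr11:88204288-88204387, plus strand: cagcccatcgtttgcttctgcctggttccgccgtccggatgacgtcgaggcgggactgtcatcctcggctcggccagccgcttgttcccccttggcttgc
Mrpl12, chr11:120484537-120484636, plus strand: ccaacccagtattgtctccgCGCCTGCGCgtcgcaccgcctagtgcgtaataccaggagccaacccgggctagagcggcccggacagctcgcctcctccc
Mrpl44, chr1:79775918-79776017, plus strand: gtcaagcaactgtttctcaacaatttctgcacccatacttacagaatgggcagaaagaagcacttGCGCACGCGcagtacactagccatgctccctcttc
Mrps26, chr2:130563657-130563756, plus strand: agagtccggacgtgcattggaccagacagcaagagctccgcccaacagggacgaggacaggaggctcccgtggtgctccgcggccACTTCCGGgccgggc
RefSeq held a promoter window, from 250 bases before to 50 after the start, for 69 of the 78 members. In these windows the letters GCGCANGCG, of the factor NRF1, occurred on either strand in 16 members (23.2%), against 7.03% of 27025 genes. These letters were chosen after a longer form, with a C added at the 3′ end, had been counted in 13 members (18.8%) and 5.19% of genes, so both counts are a description. The letters CCGGAAGT of ETS factors such as GABPA occurred in 12 members (17.4%, against 4.31%), and AAGATGGCG of YY1 in 8 (11.6%, against 1.64%). The E-box CACGTG was found in 5 members (7.25%, against 8.09%) and TATAAA in 5 (7.25%, against 15.7%). None of these 5 letter strings contains another. The stretch of Mrpl12 and that of Mrpl44 each hold an NRF1 match, that of Mrps26 holds an ETS match and that of Mrps23 holds none of the 5. The windows of Mrpl28, Mrps25 and Mrps7, described below and not printed, hold none of the 5 either. The printed genes are thus a choice and no sample of the set. GENCODE starts Mrpl12 at 120484613 and Mrps26 at 130563742, upstream of the RefSeq starts used here. The ETS match of Mrps26 therefore lies within its GENCODE gene. The 27025 genes are all those with a window, tested here or not, while all members passed the count filter. The shares were not compared with those of expressed genes alone. A match is a string of letters and was not tied to any change here.

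Mrps23, a small subunit protein found in mitochondria only, had the smallest adjusted p after repopulation. It lies on chromosome 11 from 88204388 to 88211507. Its level was 23.7, 23.5, 25.9, 20.3 and 23.1 CPM in the control group, 20.96, 20.5, 21.04, 21.1 and 20.4 with PLX3397 and 17.5, 17.2, 17.6, 17.5 and 16.99 after repopulation. The 3 groups did not overlap but for the lowest control mouse, which was level with the lowest PLX3397 mouse. Against control the repopulated mice were lower (log2 fold change -0.43, SE 0.05, adjusted p = 4.15e-06), and the means were 23.3 ± 1.99 and 17.4 ± 0.272 CPM (SD, n = 5 each).

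Mrpl28, the counterpart of bacterial L28 in the large subunit, lies on chromosome 17 from 26123500 to 26126613. Its level was 23.5, 26.1, 27.2, 23.98 and 23.5 CPM in the control group, 24.6, 21.8, 21.6, 21.6 and 20.0 with PLX3397 and 17.7, 18.1, 19.1, 19.1 and 17.9 after repopulation. Every repopulated mouse was below every other mouse, and against control the log2 fold change was -0.43 (SE 0.06, adjusted p = 6.41e-06).

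Mrpl12 forms the flexible stalk of the large subunit that recruits translation factors, and in mammals it is also known to bind the mitochondrial RNA polymerase. It lies on chromosome 11 from 120484613 to 120489065. Its level was 32.4, 28.2, 30.04, 28.5 and 26.1 CPM in the control group, 26.02, 26.8, 22.96, 22.4 and 23.1 with PLX3397 and 20.2, 23.1, 22.0, 20.3 and 20.02 after repopulation. Control and repopulated mice did not overlap (log2 fold change -0.46, SE 0.06, adjusted p = 7.6e-06), and PLX3397 mice lay between, overlapping both.

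Mrps25, a further small subunit protein of mitochondria, lies on chromosome 6 from 92169525 to 92184033. Its level was 22.7, 21.6, 21.2, 20.6 and 21.8 CPM in the control group, 19.6, 19.7, 17.8, 19.7 and 17.8 with PLX3397 and 15.8, 17.4, 18.1, 16.9 and 16.1 after repopulation. All control mice were above all mice of both other groups, and the log2 fold change from control to repopulation was -0.36 (adjusted p = 2.7e-05). The gene Nr2c2 on the opposite strand shares 69.8% of its exon bases, and whether reads were counted by strand is not given in the sources used here.

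Mrpl13 and Mrpl44 completed the 6 with the smallest adjusted p. Mrpl13, the counterpart of bacterial L13, was at 17.6, 16.9, 17.9, 16.9 and 17.7 CPM in the control group, 15.8, 18.8, 16.5, 14.7 and 15.4 with PLX3397 and 12.6, 14.01, 12.3, 13.4 and 14.3 after repopulation. Mrpl44, a large subunit protein with the fold of a double-stranded RNA nuclease, was at 15.9, 16.1, 16.4, 16.1 and 15.7 CPM in the control group, 15.7, 15.5, 14.98, 15.1 and 14.8 with PLX3397 and 11.8, 13.1, 12.98, 13.8 and 12.4 after repopulation. In both genes the repopulated mice were below all others, and the log2 fold changes against control were -0.39 (adjusted p = 8.91e-05) and -0.33 (adjusted p = 9.37e-05). Mrpl13 lies on chromosome 15 from 55534094 to 55557748 and Mrpl44 on chromosome 1 from 79776018 to 79781445.

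The next 12 members by adjusted p came from both subunits. From the small subunit they were Mrps7 (-0.34, adjusted p = 0.000116), Mrps12, counterpart of the bacterial decoding protein S12 (-0.36, adjusted p = 0.000119), Mrps26 (-0.23, adjusted p = 0.000245) and Mrps21 (-0.38, adjusted p = 0.000288). From the large subunit they were Mrpl54 (-0.47), Mrpl42 (-0.26), Mrpl15 (-0.30), Mrpl48 (-0.25), Mrpl30 (-0.26), Mrps18a (-0.25), Mrpl49 (-0.25) and Mrpl4 (-0.23), all as log2 fold changes. Their adjusted p-values ran from 0.000116 for Mrps7 to 0.00101 for Mrpl4. Mrpl53, the member with the lowest level, had the largest fold change of the set (-0.79, SE 0.26, adjusted p = 0.0245) and also the widest error.

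**Figure D2:**
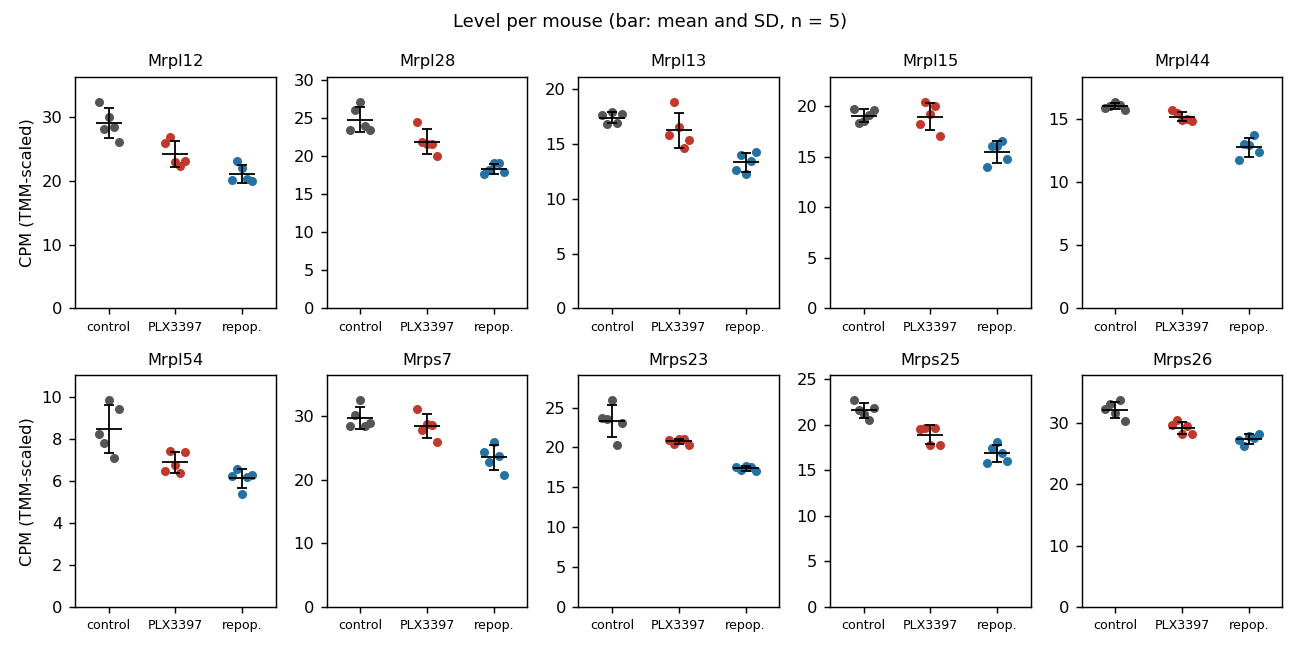
Level of 10 genes in CPM (vertical axes from 0) for each mouse, with the mean and SD of 5 mice per group. Repopulated mice lie below all control mice in all 10 panels.

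Some members had values close to those of control mice. Of the 27 members not called after repopulation, Mrps10 had a log2 fold change of 0.02 (adjusted p = 0.844) and Mrpl33 one of 0.00 (adjusted p = 0.991), with means of 11.6 ± 0.356 CPM in control and 11.6 ± 0.925 CPM after repopulation. Mrpl3, the member with the highest CPM before length is taken into account, missed the threshold at 63.9 ± 1.70 and 59.9 ± 0.889 CPM (log2 fold change -0.09, SE 0.04, adjusted p = 0.053). These 3 were named after their values were seen. The bacterial protein S18 has 3 mitochondrial relatives. Mrps18a was lower (-0.25, adjusted p = 0.000742), while Mrps18b (-0.03, adjusted p = 0.811) and Mrps18c (-0.16, adjusted p = 0.183) were not called. Mrpl10, which anchors the stalk that Mrpl12 forms, was not called (-0.05, adjusted p = 0.38). Mrpl57 (-0.28, adjusted p = 0.00814), Mrpl58, a relative of release factors that rescues stalled ribosomes (-0.15, adjusted p = 0.039), Mrps30 (-0.26, adjusted p = 0.00294) and Mrps36 (-0.34, adjusted p = 0.00673) were lower.

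With any 1 of the 15 libraries left out, 46 to 53 members were lower against control, and under the other alternatives 45 to 52 were. Of the 51 calls, 38 stood in every alternative that was run.

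The comparison of repopulated with PLX3397 mice asks what changed once the inhibitor was withdrawn and microglia returned. Here 25 of 78 members fell and 0 rose, while 8.98% of all tested genes were called lower and 7.61% higher. The median log2 change was -0.15 over the members and 0.00 over all genes. In 14 members every repopulated mouse lay below every PLX3397 mouse, against 6.24% of tested genes, and the opposite held for 0 members and 5.57% of genes. In the small subunit 8 of 26 fell and in the large subunit 16 of 51. This comparison shares its repopulated libraries with the one above.

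Mrpl15, the counterpart of bacterial L15, led by adjusted p. It lies on chromosome 1 from 4773206 to 4785739. Its level was 19.7, 18.3, 18.6, 19.1 and 19.6 CPM in the control group, 18.2, 20.4, 19.2, 20.01 and 17.03 with PLX3397 and 13.96, 16.04, 16.1, 16.6 and 14.8 after repopulation. Control and PLX3397 mice overlapped, and all repopulated mice were below both (log2 fold change -0.30, SE 0.06, adjusted p = 0.00127). Mrps7, the counterpart of bacterial S7 in the head of the small subunit, lies on chromosome 11 from 115603925 to 115608036 and was at 28.4, 30.1, 32.5, 28.5 and 28.9 CPM in the control group, 31.1, 27.7, 28.7, 28.6 and 25.9 with PLX3397 and 24.4, 22.7, 25.96, 23.7 and 20.8 after repopulation. Its highest repopulated mouse just passed the lowest PLX3397 mouse (log2 fold change -0.27, SE 0.06, adjusted p = 0.00186).

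Mrps23 (-0.26, adjusted p = 0.0017), Mrpl44 (-0.25, adjusted p = 0.00291), Mrpl28 (-0.26, adjusted p = 0.00319) and Mrpl13 (-0.29, adjusted p = 0.00365), whose levels are given above, followed. Next in order were Mrpl49 (-0.22), Mrps30 (-0.26), Mrpl16 (-0.27), Mrps12 (-0.25), Mrpl57 (-0.30), Mrpl50 (-0.19), Mrpl35 (-0.21), Mrps36 (-0.34), Mrps5 (-0.14), Mrps22 (-0.24), Mrpl45 (-0.19) and Mrpl43 (-0.17) on the log2 scale, with adjusted p up to 0.0262. Mrps22, a small subunit protein found in mitochondria only, was at 11.6 ± 0.776 CPM in control, 12.9 ± 1.00 on PLX3397 and 10.99 ± 0.432 after repopulation (SD, n = 5 each).

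The count in this comparison varied with single libraries, from 16 without depletion 2 to 34 without depletion 5, and 14 of the 25 calls stood with any 1 library left out. It was 50 with trends over gene length and GC content taken out, a setting in which 19.4% of all tested genes were called lower and the median of all genes was -0.06. At an unadjusted p under 0.05, 48 members were lower and 0 higher, against 15.2% and 13.5% of all tested genes, and DESeq2 also called 0 higher.

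**Figure D3:**
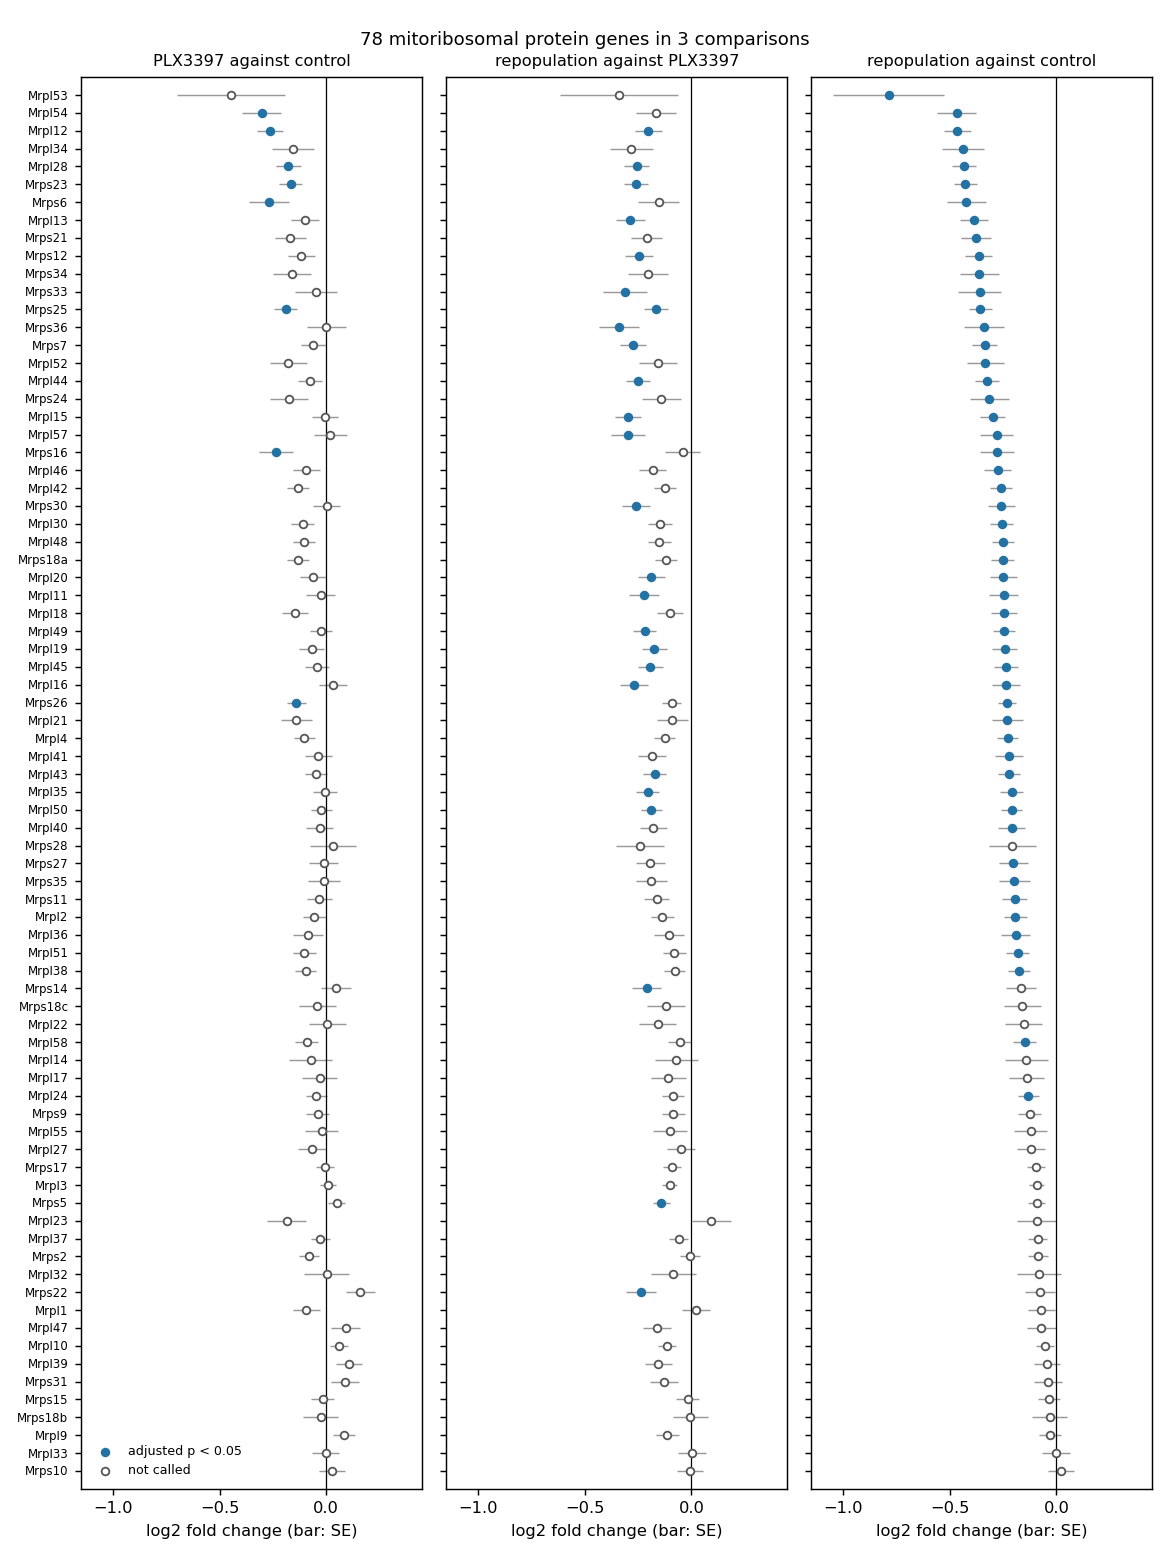
Log2 fold change of each of the 78 genes with its SE in the 3 comparisons, ordered by the change from control to repopulation. Filled points passed the adjusted p threshold of 0.05, and the counts of filled points are 8, 25 and 51 from left to right.

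On PLX3397 itself the set differed little from control. Of the 78 members 8 fell and 0 rose, and of all tested genes 8.35% were called lower and 8.19% higher. The members' median log2 change was -0.05. The share among members, 10.3%, was close to that background. In a single member, Mrps25, all PLX3397 mice lay below all control mice, a pattern seen in 5.38% of tested genes. The opposite pattern held for 0 members and 4.99% of genes. An unadjusted p under 0.05 was reached by 14 members that were lower and 1 that was higher, against 15.1% and 14.3% of all tested genes, and DESeq2 also called 0 higher.

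Mrpl12 had the smallest adjusted p of the 8, with 29.1 ± 2.34 CPM in control and 24.3 ± 2.01 on PLX3397 (log2 fold change -0.26, SE 0.06, adjusted p = 0.0044), and Mrps25 followed (log2 fold change -0.19, SE 0.05, adjusted p = 0.0167). Mrpl54, a large subunit protein found in mitochondria only, lies on chromosome 10 from 81264713 to 81266934 and was at 8.23, 7.81, 9.84, 7.11 and 9.41 CPM in the control group, 6.48, 7.44, 6.76, 6.35 and 7.36 with PLX3397 and 6.24, 6.55, 5.38, 6.18 and 6.27 after repopulation. PLX3397 and control mice overlapped in it, the control mice being widely spread (log2 fold change -0.30, SE 0.09, adjusted p = 0.0238). Mrps26, a small subunit protein of mitochondria on chromosome 2 from 130563742 to 130568695, was at 32.2, 33.04, 31.7, 33.7 and 30.3 CPM in the control group, 29.7, 30.5, 28.2, 29.4 and 28.2 with PLX3397 and 27.2, 26.2, 27.8, 27.6 and 28.2 after repopulation. Its highest PLX3397 mouse just passed the lowest control mouse (log2 fold change -0.14, SE 0.04, adjusted p = 0.0284). Mrpl28 (-0.18, adjusted p = 0.0334), Mrps23 (-0.17, adjusted p = 0.0339), Mrps16 (-0.24, adjusted p = 0.0405) and Mrps6 (-0.27, adjusted p = 0.048) were the others. Mrps6 shares 19.9% of its exon bases with Gm49711 and 10.4% with Slc5a3, both on the same strand.

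These calls were fragile. Without control 1, 2 or 3 the number of lower members was 3, 4 and 3, and without depletion 3, 4 or 5 it was 2, 3 and 3. Mrpl12 alone kept its call with any 1 library left out. Mrps25 lost it without control 1 or depletion 3, with an adjusted p of up to 0.0513, and the other 6 lost it without at least 3 libraries in turn. With length and GC trends taken out 1 member was lower, Mrps25, and 2 were higher, Mrpl10 and Mrps22, beside 4.71% and 9.96% of all tested genes.

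Gene length moved with the calls over the whole table. After repopulation 43.4% of tested genes with a main transcript under 1000 bases were lower than in control, against 4.83% of those of 4000 bases or more. Most mitoribosomal protein genes are short, with a median main transcript of 1302 bases against 3054 for all tested genes. Members were therefore read within classes of length. Under 1000 bases 16 of 25 members were lower, from 1000 to 1500 bases 17 of 22 (37.9% of all tested genes), and from 1500 to 2500 bases 5 of 10 (27.4%). From 2500 to 4000 bases 7 of 12 were lower (14.5%) and at 4000 bases or more 6 of 9 (4.83%). From the shortest class to the longest, the median changes of members were -0.25, -0.22, -0.14, -0.17 and -0.23. Those of all tested genes in the same classes were -0.22, -0.16, -0.08, -0.004 and 0.10. From PLX3397 to repopulation 4 of the 9 members in the longest class were lower, against 3.34%, while under 1000 bases 3 of 25 were, against 20.1%. On PLX3397 against control the members' counts in the classes, from the shortest, were 2 of 25, 3 of 22, 0 of 10, 1 of 12 and 2 of 9, beside 13.4, 13.7, 10.9, 9.59 and 7.41% of all genes.

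Taking out a smooth trend of each library over exon length and GC content left 46 members lower and 0 higher after repopulation against control, with a median of -0.20. Of the 51 calls 41 were among these 46, and 16.3% of all tested genes were called lower in that setting. Over all genes that correction turned 2548 higher and 2797 lower calls into 1389 and 2930. For repopulation against PLX3397 it turned 1398 and 1649 into 764 and 3484, and upper quartile factors gave 1713 and 1280. For PLX3397 against control it turned 1505 and 1533 into 1789 and 846. The exon length in that correction covers all exons of a gene, unlike the main transcript length of the classes above. For repopulation against control the log2 fold changes of all tested genes correlated with exon length at rho 0.29. With main transcript length rho was 0.46. A trend over main transcript length was not taken out.

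**Figure D4:**
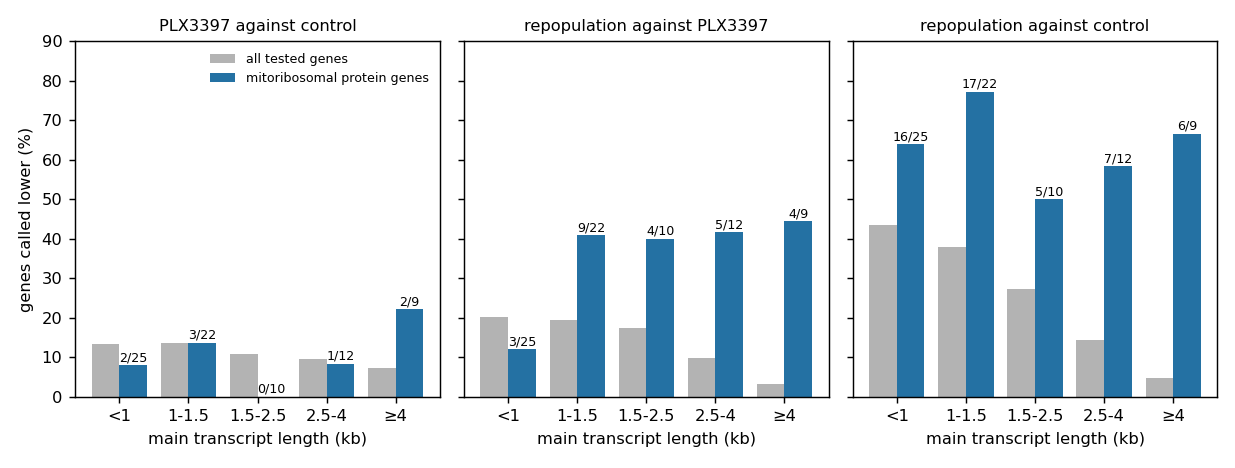
Share of genes called lower (percent) by length of the main transcript, for all tested genes (grey) and for the mitoribosomal protein genes (blue, with the number called of the number in the class), in the 3 comparisons. For repopulation against control the blue bars exceed the grey ones in all 5 classes, for PLX3397 against control in 1 of 5, and for repopulation against PLX3397 in all but the shortest class.

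Other parts of the mitochondrial translation machinery were read from lists of genes that the symbol pattern does not catch. For reference, 15.2% of all tested genes were lower and 13.9% higher after repopulation against control. On PLX3397 against control these shares were 8.35% and 8.19%, and from PLX3397 to repopulation 8.98% and 7.61%. Both ribosomal RNAs of the mitoribosome, which the mitochondrial genome encodes, were lower in each comparison. mt-Rnr1, the small subunit RNA, was at 2312 ± 185.6 CPM in control, 2033 ± 115.4 on PLX3397 and 1621 ± 82.9 after repopulation (SD, n = 5 each). Its log2 fold changes were -0.19 (adjusted p = 0.0157) on PLX3397 and -0.51 (adjusted p = 1.33e-06) after repopulation against control, and -0.33 (adjusted p = 0.000124) from PLX3397 to repopulation. mt-Rnr2, the large subunit RNA, was at 3977 ± 190.3, 3544 ± 239.8 and 2984 ± 171 CPM, with log2 fold changes of -0.17, -0.41 and -0.25 in the same order of comparisons. How ribosomal RNA was removed or messenger RNA selected before sequencing is not given in the sources used here.

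Some mitoribosomal proteins have symbols outside the pattern. Of 5 tested, 4 were lower than in control, namely Aurkaip1 (-0.37, adjusted p = 0.000288), Gadd45gip1 (-0.32), Chchd1 (-0.28) and Dap3 (-0.16), a GTP-binding protein of the small subunit. From PLX3397 to repopulation 3 of the 5 were lower, Aurkaip1 (-0.32), Gadd45gip1 (-0.26) and Dap3 (-0.18). Ptcd3, an RNA-binding protein of the small subunit, was not called after repopulation against control (0.07, adjusted p = 0.221) and was higher on PLX3397, with 48.6 ± 1.17 CPM on PLX3397 against 44.5 ± 2.22 in control (0.13, adjusted p = 0.0302).

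Factors that build the mitoribosome were lower in 5 of 25 genes after repopulation against control and higher in 0, with a median of -0.10. Of all tested genes 15.2% were lower and 13.9% higher. The 5 included Mrm1, which methylates the large ribosomal RNA (-0.33, adjusted p = 0.000366), Rbfa, which matures the small subunit (-0.29) and Eral1, a chaperone of the small ribosomal RNA (-0.27). On PLX3397 1 of 25 was lower, Mrm1 (-0.21, adjusted p = 0.0308), beside 8.35% of all tested genes. From PLX3397 to repopulation 1 was lower, Ngrn (-0.22), beside 8.98%.

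Translation factors and related genes went both ways. The 18 tested take in genes that are not translation factors in the strict sense, such as Coa3, Cox14 and Lrpprc. After repopulation 6 of 18 were lower than in control, beside 15.2% of all tested genes, and 3 were higher, beside 13.9%. Coa3 (-0.37, adjusted p = 0.000302), Cox14 (-0.28) and the elongation factor gene Tufm (-0.20) led the lower genes. The higher genes were Lrpprc (0.31), Guf1 (0.26) and Mtif2 (0.14). Lrpprc, which stabilises mitochondrial messenger RNAs, was already higher on PLX3397, at 86.1 ± 4.67 CPM against 69.2 ± 1.69 in control (0.31, adjusted p = 3e-06), as were Guf1 (0.19) and Gfm1 (0.16), while Coa3 was lower (-0.21, adjusted p = 0.0448). From PLX3397 to repopulation 1 of 18 was higher, Gfm2 (0.18), and 0 were lower.

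Mitochondrial tRNA synthetases, which charge the tRNAs, had 3 higher and 1 lower of 20 after repopulation against control. Of all tested genes 13.9% were higher and 15.2% lower. Wars2 (0.32), Mars2 (0.18) and Iars2 (0.12) were higher and Fars2 was lower (-0.33, adjusted p = 0.00397). The median of these genes was -0.02. On PLX3397 1 was higher, Iars2 (0.13), and from PLX3397 to repopulation 1 was lower, Fars2 (-0.28).

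Of 11 tested messenger RNAs of the mitochondrial genome, mt-Nd5 was higher after repopulation than in control (0.25, adjusted p = 6.2e-05) and mt-Co1 lower (-0.20, adjusted p = 0.000574). The rows of mt-Co2, mt-Co3, mt-Atp6 and mt-Nd3 lay under 2 CPM and the other 7 above 1000 CPM, so the median over all 11 (-0.09) rests in part on rows with few reads. On PLX3397 mt-Nd5 was higher (0.16), and from PLX3397 to repopulation mt-Co1 (-0.14) and mt-Co2 (-0.84, at 0.93 and 0.52 CPM) were lower.

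Regulators of mitochondrial genes were mixed. Among 14 tested, Esrra, a nuclear receptor that drives genes of oxidative metabolism, fell from 50.2 ± 0.65 CPM in control to 42.6 ± 3.18 on PLX3397 (-0.24, adjusted p = 0.000437) and stood at 39.3 ± 0.32 after repopulation (-0.36, adjusted p = 3.4e-06). Nrf1, the factor of the motif above, was lower after repopulation, at 17.8 ± 0.531 CPM against 21.04 ± 1.83 in control (-0.25, adjusted p = 0.00409). The factors of the other motifs were not called in that comparison, with -0.05 for Gabpa (adjusted p = 0.568), -0.16 for Gabpb1 (adjusted p = 0.0649) and -0.02 for Yy1 (adjusted p = 0.688). The coactivator genes Ppargc1a (0.24) and Ppargc1b (0.23) were higher after repopulation than in control. Their relative Pprc1 was lower on PLX3397 (-0.25, adjusted p = 0.000434) and higher in repopulated than in PLX3397 mice (0.30). Ppargc1a was higher on PLX3397 as well (0.16). Genes for the ribosome of the cytosol, taken by symbol, were lower than in control in 81 of 84 after repopulation (median -0.39) and in 40 of 84 on PLX3397 (median -0.18). The difference between both kinds of ribosome was not tested.

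**Figure D5:**
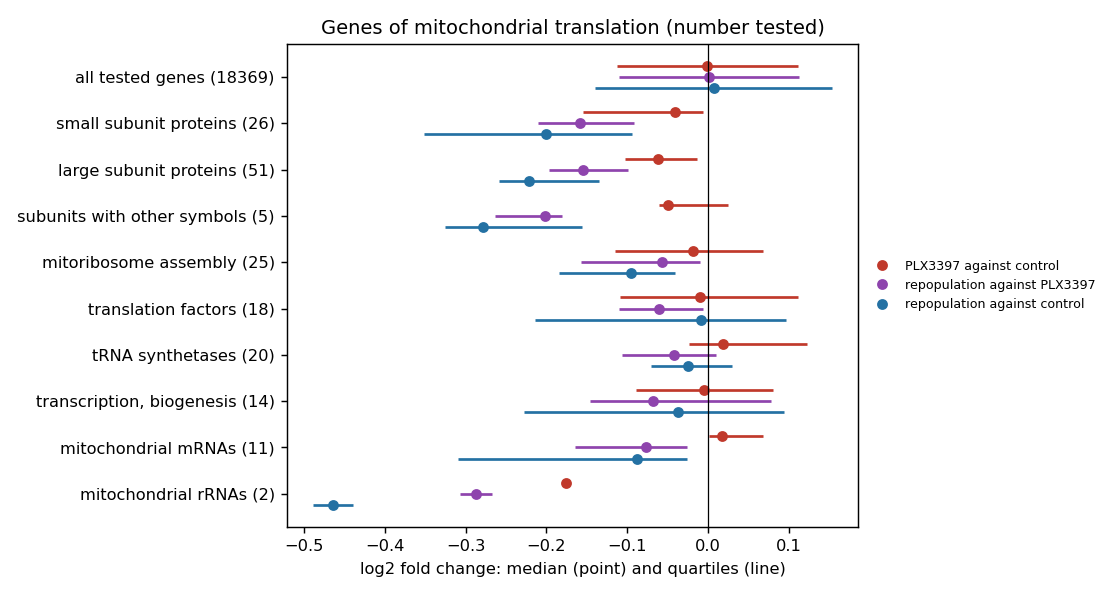
Median (point) and quartiles (line) of the log2 fold changes of each gene list in the 3 comparisons, with the number of genes tested. After repopulation against control the proteins and RNAs of the mitoribosome lie at -0.20 or below, while the factors, synthetases and regulators lie between -0.10 and 0. Genes for the ribosome of the cytosol are not drawn, and their median in that comparison was -0.39.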

How the data were processed

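The deposited table holds raw read counts per gene, as whole numbers, 1 column per mouse. The submitters' processing notes name mm10 and, as tools, STAR, DESeq2, DESeq, FastQC and MultiQC. The sources used here state neither their roles nor the counting tool, annotation or strand setting. Columns were matched to labels by group and mouse number.

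Counts were analysed with edgeR 4.0.16 in R 4.3.3. The filterByExpr rule kept 18369 of 53278 genes, TMM factors scaled libraries, and the robust quasi-likelihood F test was fitted to all 15 libraries without covariates. The script was tested on simulated data. SE is that of the log2 fold change, and SD is over 5 mice. Each library is a separate mouse. No pair of libraries was identical, and chi-square per degree of freedom within groups was 2.53 to 9.95.

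GENCODE M21 on GRCm38, the assembly also called mm10, was joined by symbol and gave coordinates, exon lengths, GC content and main (APPRIS principal) transcripts. Promoters came from RefSeq, and the NRF1 letters were shortened by 1 base after a first count of matches. Exons of 17 members share at least 10% of their bases with another gene, so their counts are less certain.

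The members and lists were chosen with earlier results of these data known. Values in every library are given for up to 6 called genes per direction and comparison with the smallest adjusted p, followed by up to 12 more called, the 3 highest and 3 lowest per kilobase, 9 members with a place or role that the symbol does not tell, and up to 3 called genes per direction in each related list. Alternatives were RLE and upper quartile factors, DESeq2 1.42.0, no count filter, length and GC offsets, a replicate block, fits of 2 groups and leaving out each library.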

Additional observations from a re-analysis of the deposited data

Results flagged for a closer look

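In 7 of 234 sets of 5 mice (78 genes in 3 groups) the highest or lowest mouse stood apart, its gap to the next exceeding 0.71 of the range. Chance gives about 1 in 20 such sets. Among control mice, control 3 was high in Mrpl32 (14.1 CPM, the others 10.95 to 11.5) and in Mrpl38 (35.6 CPM, the others 31.5 to 32.5). Control 5 was high in Mrps36 (10.1 CPM, the others 8.30 to 8.68) and low in Mrpl33 (10.95 CPM, the others 11.6 to 11.8). Among repopulated mice, repopulation 1 was high in Mrps22 (11.7 CPM, the others 10.7 to 10.9), and repopulation 4 was high in Mrps34 (10.2 CPM, the others 7.87 to 8.42) and in Mrps35 (14.5 CPM, the others 12.6 to 13.1). Mrps34 shares 63.4% of its exon bases with Mapk8ip3 on the opposite strand and 37.0% with Nme3 on the same strand. No PLX3397 mouse stood apart in this way.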

How the results depend on the processing

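No member that was called changed direction under any alternative. After repopulation against control the count of lower members was 45 to 52 over the 8 alternatives that keep all libraries of both groups compared. The median log2 fold change was -0.22 to -0.20. Counts for PLX3397 against control depended most on the settings. The 8 lower members became 1, with 2 higher, with length and GC trends taken out, and the same with a replicate block added to that correction. In both settings the small subunit had 1 lower and 1 higher and the large subunit 0 lower and 1 higher. In a fit of the 2 groups alone 3 members were lower, 1 of them in the small subunit, and with no count filter 3 small subunit members were. For repopulation against PLX3397 the 25 lower members became 50 with length and GC trends taken out (16 in the small and 33 in the large subunit) and 49 with the replicate block as well (15 and 33), while lower calls over all genes went from 1649 to 3484 and 3279. Leaving out 1 library at a time gave 2 to 9 lower members on PLX3397 (0 to 5 in the small and 1 to 6 in the large subunit), 16 to 34 from PLX3397 to repopulation (3 to 11 and 10 to 23) and 46 to 53 after repopulation against control. The cause of these differences was not tested. Mice with the same number did not deviate together (correlation -0.13 to 0.10 over pairs). For repopulation against PLX3397 1 of 5 mice correlated best with its own number, and in each of the other comparisons 0 did. Pairing by number was thus not seen. The replicate block alone gave 7, 23 and 48 lower members in the 3 comparisons, against 8, 25 and 51 without it. Members at under 1 CPM, here Mrpl53, are limited by depth.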

Other observations

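Within groups the members varied together only weakly. Over the 15 libraries, each taken as its deviation from the group mean of log2 CPM, the median Pearson correlation was 0.17 over all 3003 pairs of members (quartiles -0.06 and 0.36). It was 0.17 within the small subunit, 0.19 within the large subunit and 0.16 between the subunits. The points share library, depth and base composition, so these values are a description across genes.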
